A study of Mus musculus with 14 samples.

Results

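The Shroom proteins and the filamin A-interacting proteins Filip1 and Filip1l are regulators of the actin cytoskeleton, and 7 of their genes were followed here in the cortex of Dnmt3a heterozygous mice. The members were Shroom1, Shroom2, Shroom3, Shroom4, Filip1, Filip1l and Flna, the gene of filamin A. They were taken by symbol from a table of 34193 genes, and all 7 had enough reads to be tested among 13815 genes. The list was drawn up with the genotype values of Shroom3 and Filip1 known, so the genotype values of all members are given as a description, and nothing is supported with them. RNA had been sequenced from the cortex of 14 C57BL/6J mice at 8 weeks of age, per the protocols and the series type, although the molecule field of all 14 samples reads genomic DNA. Of these, 7 carried a heterozygous knockout of Dnmt3a and 7 were wild-type littermates, with 4 females and 3 males in each genotype. The labels name no driver or cell type for the knockout, and neither genotype is labelled with any other allele or treatment. The leading number of each sample title, called the title prefix below, takes 6 values, and each prefix holds animals of 1 sex and both genotypes. What the prefix stands for is not stated in the labels. Prefixes 119 and 141 (set B, 6 animals) were set apart from prefixes 046, 047, 048 and 139 (set A, 8 animals) in an earlier analysis of the same counts. Set A has 4 animals of each genotype and set B has 3.

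Shroom proteins bind actin filaments and bring about the activation of non-muscle myosin II, so that the actin network contracts. This is best known from the closing neural tube of the embryo, where Shroom3 drives the narrowing of the apical end of epithelial cells. Filamin A cross-links actin filaments and anchors them to membrane proteins, and mutations of human FLNA disturb the migration of cortical neurons. Filip1 binds filamin A and promotes its breakdown, and in the developing rodent cortex it restrains the exit of cells from the ventricular zone. Dnmt3a adds methyl groups to cytosine, mostly in CG dinucleotides and, in neurons, also in other contexts.

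The bases upstream of annotated starts of Shroom3 and Filip1 are shown because these are the members whose genotype values led to the list, and because CG is the dinucleotide that Dnmt3a is best known to methylate. No methylation was measured in these libraries, and the counts are per gene and do not tell which start was used. Each window holds the 250 bases before a RefSeq start in GRCm38.p6, written along the gene's own strand with each CG in capitals. Shroom3 has 2 such windows on the plus strand and both are shown. Of the 4 windows of Filip1, all on the minus strand, the one with the most CG is shown.
Shroom3, chr5:92809132-92809381: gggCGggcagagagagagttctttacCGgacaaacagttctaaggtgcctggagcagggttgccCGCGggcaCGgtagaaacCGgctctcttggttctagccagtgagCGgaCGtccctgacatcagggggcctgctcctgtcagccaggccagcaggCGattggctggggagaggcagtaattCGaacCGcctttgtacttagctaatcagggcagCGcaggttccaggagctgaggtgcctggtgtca
Shroom3, chr5:92897743-92897992: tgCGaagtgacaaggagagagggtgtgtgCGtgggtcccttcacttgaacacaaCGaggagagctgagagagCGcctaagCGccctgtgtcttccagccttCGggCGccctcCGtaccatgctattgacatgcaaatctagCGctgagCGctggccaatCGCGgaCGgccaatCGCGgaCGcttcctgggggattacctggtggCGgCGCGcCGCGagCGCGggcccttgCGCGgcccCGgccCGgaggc
Filip1, chr9:79977883-79978132: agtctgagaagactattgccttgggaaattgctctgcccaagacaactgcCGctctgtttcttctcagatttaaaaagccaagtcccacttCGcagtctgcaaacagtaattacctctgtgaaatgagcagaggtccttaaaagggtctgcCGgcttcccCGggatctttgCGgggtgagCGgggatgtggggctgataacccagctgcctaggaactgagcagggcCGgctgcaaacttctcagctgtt
The first Shroom3 window held 12 CG and the second 27, whereas the Filip1 window held 7. CG reads the same on both strands, so each was counted once. Of 32817 such windows, 92.1% held at least 1 CG and the median was 6. Duplicate windows and those of 1 chromosome, which holds no member, were left out of this background. Fewer CG than in the second Shroom3 window were found in 91.4% of windows, fewer than in the first in 66.5%, and fewer than in the Filip1 window in 53.7%. The other 3 windows of Filip1 held 3, 3 and 6 CG. Among the other members, Flna had 15 CG in its only window, Filip1l had 6 and 25, Shroom4 had 3, 4 and 10, and Shroom2 ranged from 0 to 24 over 4 windows. Shroom1 had no window among those counted. A CG count describes these letters and says nothing of their methylation.

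Total counts ranged from 8951835 to 14335406 per animal. Levels are given as CPM, the count of a gene relative to the total count of its library, with totals scaled between animals by TMM factors. Dnmt3a itself served as the check of the labels. It lay between 124 and 164 CPM in wild-type animals and between 84.3 and 118 CPM in heterozygotes, and the genotypes did not overlap. Its log2 difference, heterozygous minus wild type, was -0.57 (SE 0.0752) with an adjusted p of 0.00774 by edgeR's quasi-likelihood test. Markers of excitatory neurons were present in every animal, with Slc17a7, their vesicular glutamate transporter, at 1054 to 1642 CPM. Markers of the striatum, the region beneath the cortex, summed to 334 to 1127 CPM. None of 11 lists of cell type markers separated the genotypes: for each list the ranges of the summed level overlapped, and no list had a gene at 0 in all animals. The closest were 9 markers of pericytes and smooth muscle, at 110 to 143 CPM in wild-type animals and 96.6 to 123 CPM in heterozygotes. In whole tissue, fewer cells of a type and less RNA per cell cannot be told apart.

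The members differed widely in level. Per kilobase of exon, Shroom2 was the highest in all 14 animals, at 17.1 ± 1.37 CPM per kb (mean and SD, n = 14), which was above 80.9% of tested genes. Shroom2 is known for controlling contractility of endothelial cells and the placing of pigment granules. Flna followed in every animal at 5.37 ± 0.684 CPM per kb. Filip1 at 1.90 ± 0.595 and Shroom1 at 1.72 ± 0.284 CPM per kb came next and did not separate, since Filip1 was the higher of them in 9 of 14 animals. Shroom4 at 0.734 ± 0.122, Shroom3 at 0.716 ± 0.145 and Filip1l at 0.633 ± 0.167 CPM per kb formed the lowest group, each within the spread of its neighbour. Shroom4 exceeded Shroom3 in 8 of 14 animals and Shroom3 exceeded Filip1l in 9 of 14. An overlapping gene could share reads with Shroom3. This gene, 4932430I15Rik, a long noncoding RNA on the opposite strand, shares 3293 exon bases with Shroom3 in GENCODE M21 but is listed at 0 reads in all 14 animals. The sources used here do not state whether reads were counted by strand. Shroom1 shares 141 exon bases with the antisense gene Gm12212, and reads of that stretch may be assigned to either gene.

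**Figure D1:**
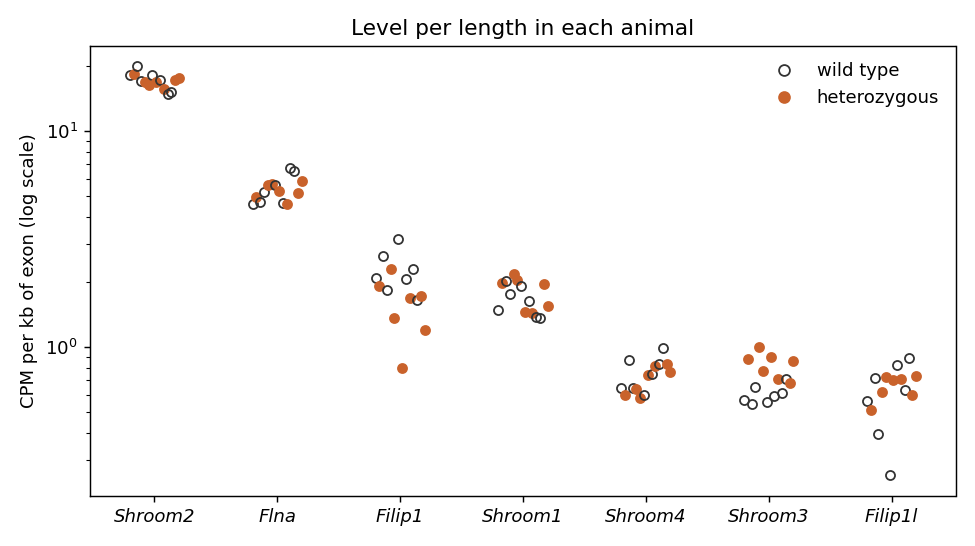
Level of each member in CPM per kilobase of exon on a log axis, 1 point per animal (7 wild type, 7 heterozygous), ordered by mean. Shroom2 and Flna lie above the other 5 members in all 14 animals, whereas Filip1 and Shroom1, and the lowest 3, overlap.

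Of the 7 genes, 5 are long, a feature that played no part in choosing them. Shroom3 spans 282 kb of GENCODE M21, Shroom4 238 kb, Filip1l 220 kb, Filip1 198 kb and Shroom2 160 kb, each longer than at least 91.2% of tested genes, whose median span was 26.0 kb. Flna at 26.4 kb lies near that median, and Shroom1 at 10.6 kb is longer than only 24.5% of tested genes. Shroom2, Shroom4 and Flna lie on the X chromosome, Shroom3 on chromosome 5, Filip1 on chromosome 9, Shroom1 on chromosome 11 and Filip1l on chromosome 16.

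Shroom3, the apical constriction factor, was read 76 to 157 times per animal. In wild-type animals it had a lowest level of 7.21, a median of 7.84 and a highest level of 9.38 CPM. In heterozygotes it had a lowest level of 9.04, a median of 11.3 and a highest level of 13.3 CPM. The genotypes overlapped only at the edge: 5 of 7 heterozygotes lay above every wild-type animal, and the other 2, both of set B, lay just under the highest wild-type animal. Mean levels were 8.01 ± 0.770 CPM in wild-type and 10.97 ± 1.504 CPM in heterozygous animals (SD, n = 7 each), so that the heterozygous mean was 137% of the wild-type mean. The fitted log2 difference was 0.45 (SE 0.103, 95% interval 0.24 to 0.67).

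Filip1, the filamin A-binding protein, was read 36 to 182 times per animal. In wild-type animals it had a lowest level of 8.38, a median of 10.6 and a highest level of 16.1 CPM. In heterozygotes it had a lowest level of 4.08, a median of 8.60 and a highest level of 11.7 CPM. The genotypes overlapped over much of their range, with 3 of 7 heterozygotes below every wild-type animal and 2 of 7 wild-type animals above every heterozygote. Mean levels were 11.4 ± 2.61 CPM in wild-type and 7.99 ± 2.50 CPM in heterozygous animals (SD, n = 7 each), a heterozygous mean of 70.0% of wild type. The fitted log2 difference was -0.51 (SE 0.142, 95% interval -0.81 to -0.21).

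The other 5 members overlapped across most of their range. Flna, the partner of Filip1, ran from 43.4 to 63.0 CPM with a median of 49.1 in wild-type animals and from 43.1 to 55.3 CPM with a median of 49.5 in heterozygotes. Its fitted log2 difference was -0.027 (SE 0.0858). Shroom2 ran from 124 to 167 CPM in wild-type and from 132 to 154 CPM in heterozygous animals, a log2 difference of -0.014 (SE 0.0652). These were the best measured members, with at least 437 reads of Flna and 1210 of Shroom2 in each animal. Shroom1, an actin-binding member that is little studied, ran from 6.28 to 9.27 CPM and from 6.57 to 9.96 CPM, a log2 difference of 0.13 (SE 0.119). Shroom4, whose gene has been linked to X-linked intellectual disability in humans, ran from 5.33 to 8.74 CPM and from 5.12 to 7.37 CPM, a log2 difference of -0.096 (SE 0.132). Filip1l, a relative of Filip1 known from human endothelial and tumour cells as an inhibitor of migration, ran from 1.36 to 4.73 CPM and from 2.73 to 3.89 CPM. Its log2 difference of 0.091 (SE 0.209) was the least precise of the 7, resting on 14 to 59 reads per animal.

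**Figure D2:**
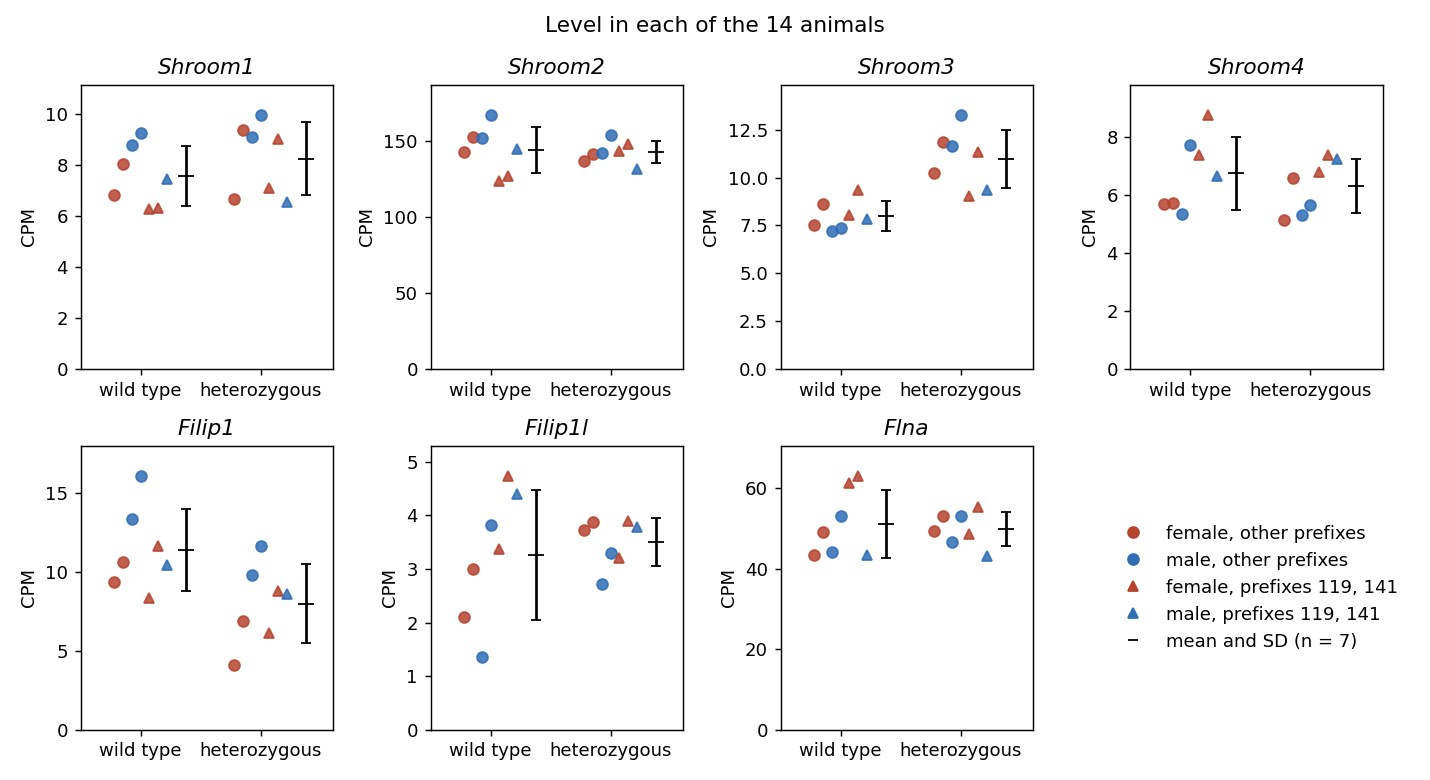
Level of each member in CPM in 7 wild-type and 7 heterozygous animals. Red marks females, blue males, triangles prefixes 119 and 141 and circles the other prefixes, with the mean and SD of each genotype beside the points; Shroom3 overlaps only at the edge, Filip1 over much of its range and the other 5 members over most of it.

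Across all genes, the genotype comparison with sex as a term called 2 of 13815 genes at an adjusted p under 0.05 by edgeR's quasi-likelihood test, 0.0145% of those tested, and 0 of the 7 members. Members with an unadjusted p under 0.05 numbered 2, Shroom3 and Filip1, beside 552 of all tested genes (4.00%). DESeq2 also called 0 members. With the title prefix as a block, 56 genes were called, 0.405% of those tested, and 2 members were among them. These were Shroom3, with an adjusted p of 0.0444, and Filip1, with an adjusted p of 0.0458. It was by this call that the 2 genes came to be on the list, so nothing is read from their share. In the authors' deposited table, whose log2 fold changes are shrunken towards 0, Shroom3 has a value of 0.281 with an adjusted p of 0.0341 and is among 27 of 14160 genes under 0.05. Filip1 has -0.256 with an adjusted p of 0.0862 in that table, and the other 5 members have adjusted p-values of 0.791 to 0.981 there.

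Taken prefix by prefix, as differences of mean log2 CPM, Shroom3 was higher in heterozygotes within 6 of 6 prefixes. The differences were 0.86 in prefix 046, 0.65 in 048, 0.45 in 047, 0.43 in 139, 0.25 in 119 and 0.22 in 141. The 4 prefixes of set A thus held the larger differences, and the set differences were 0.60 and 0.23. Filip1 was lower in heterozygotes within 6 of 6 prefixes, by values from -1.17 in prefix 047 to -0.20 in prefix 046. The largest of these differences came from the animal with the fewest reads of Filip1, heterozygous replicate 4 with 36 reads, and without it the fitted log2 difference over all animals was -0.43. Shroom3 and Filip1 came to be listed by a genotype call in these same animals, so their shared direction over the prefixes supports nothing. How many of all genes have 1 direction in 6 of 6 prefixes was not counted. The other 5 members each had prefixes in both directions. Filip1l was the most variable of them, from -0.21 to 0.93, and its set differences were 0.47 in set A and -0.18 in set B.

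**Figure D3:**
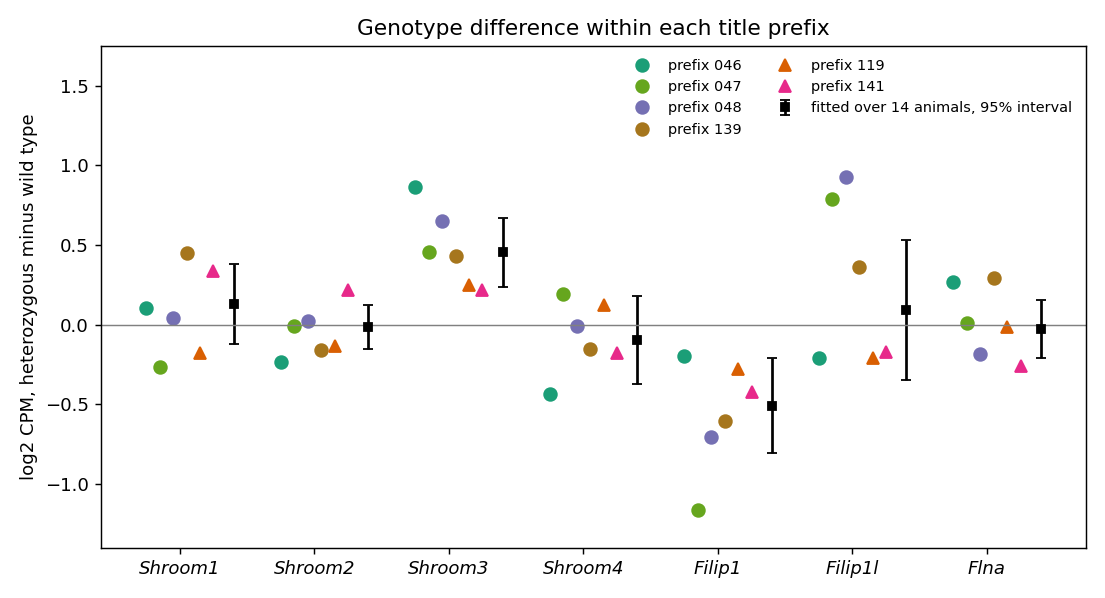
Difference of log2 CPM, heterozygous minus wild type, within each of 6 title prefixes (2 animals each, 4 in prefix 141), with the fitted difference over 14 animals and its 95% interval in black. Shroom3 lies above 0 and Filip1 below 0 in 6 of 6 prefixes, but both were chosen by a genotype call in these animals. Each of the other 5 members has prefixes on both sides of 0.

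Sex took no part in choosing the members, so it was compared as well. Each prefix holds 1 sex, however, so a sex difference cannot be told apart from differences between prefixes. Animals of 1 prefix deviated together, but the fit takes all 14 as independent, so its intervals may be too narrow and its p-values too small. In the comparison of females with males, 1 gene was called by edgeR's quasi-likelihood test, 0.00724% of those tested, and 0 of the 7 members. The filter by genotype asked for enough reads in at least 7 animals. A gene read only in the 6 males was thus not among those tested, which lowers this count. Of the members, 1 had an unadjusted p under 0.05, beside 964 of all tested genes (6.98%), and DESeq2 called 0 members. That member was Filip1, which ran from 4.08 to 11.6 CPM with a median of 8.57 in 8 females and from 8.60 to 16.1 CPM with a median of 11.1 in 6 males. The sexes overlapped, and 3 males lay within the female range. Females averaged 10.0 ± 1.43 CPM against 13.3 ± 2.81 CPM in males among wild-type animals, and 6.47 ± 1.94 against 10.0 ± 1.54 CPM among heterozygotes (SD, n = 4 and 3). The log2 difference, female minus male, was -0.50 (SE 0.142, 95% interval -0.80 to -0.20), with an adjusted p of 0.576 by edgeR, and the adjusted p ranged from 0.186 to 0.880 over the alternatives. Sex values of Filip1 come from the same 14 animals as its genotype values, and the genotypes are balanced within each sex. Summed striatal markers had a median of 473 CPM in females and 688 CPM in males, with ranges of 334 to 822 and 463 to 1127 CPM, and their part in the difference of Filip1 was not tested.

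The 3 X-linked members did not pass the test between the sexes. Flna had a log2 difference of 0.16 (95% interval -0.019 to 0.35, adjusted p 0.708 by edgeR), Shroom4 of 0.074 (-0.21 to 0.35) and Shroom2 of -0.091 (-0.23 to 0.047). Among 480 X-linked genes tested, 1 was called and the middle 50% of log2 differences ran from -0.079 to 0.11. Shroom1 at -0.19, Shroom3 at 0.020 and Filip1l at 0.083 had intervals that include 0.

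Of the members, only Filip1 passed 0.05 in a comparison of the 6 title prefixes. This comparison uses the fit, and so the spread between animals, by which Filip1 came to be listed. It is therefore not independent of that choice. In this F test, fitted with genotype as a term, 4591 genes were called, 33.2% of those tested, and 1 of the 7 members, Filip1, with an adjusted p of 0.0086 by edgeR's quasi-likelihood test. With 33.2% of all genes called, a count of 1 in 7 is not a result about the members as a group. Filip1 was highest in the male prefixes 048, at 9.78 and 16.1 CPM, and 046, at 11.7 and 13.4 CPM. It was lower in the male prefix 119, at 8.60 and 10.5 CPM, and in the female prefixes 139, at 6.92 and 10.6 CPM, and 141, at 6.13 to 11.6 CPM. The lowest was the female prefix 047, at 4.08 and 9.35 CPM. Prefixes hold 1 sex each, and when prefixes were compared within each sex, the adjusted p of Filip1 was 0.181.

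Flna and Shroom4 followed in that test with adjusted p-values of 0.0744 and 0.112 by edgeR. Flna ran from 43.1 to 43.5 CPM in prefix 119 and from 48.7 to 63.0 CPM in prefix 141, which do not overlap and which are the prefixes of set B. The other 4 prefixes lay between 43.4 and 53.2 CPM. Flna passed 0.05 without wild type replicate 1 (0.0397), wild type replicate 2 (0.0433), heterozygous replicate 2 (0.0256), heterozygous replicate 3 (0.0205) or heterozygous replicate 6 (0.0222). Shroom4 ran from 5.12 to 7.72 CPM in set A and from 6.65 to 8.74 CPM in set B, and 1 animal of set A reached the range of set B. Filip1l had an adjusted p of 0.140, Shroom1 of 0.226, Shroom2 of 0.370 and Shroom3, with means from 8.60 to 10.3 CPM over the prefixes, of 0.809. The sets also stood apart in 2 of 11 marker lists. As the sets come from an earlier analysis of these same counts, set differences in levels or markers may not be independent of that choice. The share of all genes that separate the sets was not counted. The summed astrocyte markers ran from 9559 to 11027 CPM in set A and from 12775 to 18370 CPM in set B. The summed markers of inhibitory neurons ran the other way, from 781 to 908 CPM in set A and from 599 to 773 CPM in set B. The part of these markers in the levels of Flna and Shroom4 was not tested.

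Whether genotype effects differed between the sexes, or between the prefix sets, was tested with interaction terms. Between the sexes, edgeR's quasi-likelihood test called 0 genes, 0% of those tested, with 144 under an unadjusted p of 0.05, and DESeq2 called 0. No member had an unadjusted p under 0.05. The log2 difference for Shroom3 was 0.33 in females and 0.59 in males, and that for Filip1 was -0.65 in females and -0.39 in males. The interaction, female effect minus male effect, was -0.28 for Shroom3 (95% interval -0.71 to 0.15) and -0.20 for Filip1 (-0.81 to 0.42). These intervals are wide enough to hold differences larger than the genotype values themselves.

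Between the sets, edgeR called 0 genes, 0% of those tested, with 2036 under an unadjusted p of 0.05, while DESeq2 called 210. Neither tool called a member. The interaction for Shroom3, effect in set B minus effect in set A, was -0.39 (95% interval -0.78 to 0.0048, adjusted p 0.345 by edgeR). Shroom2 had 0.20 (-0.0037 to 0.40) and Flna -0.28 (-0.58 to 0.014), both with intervals that end close to 0. With the title prefix as a block, 3 intervals left out 0. These were Shroom2 (0.014 to 0.38), Shroom3 (-0.77 to -0.011) and Flna (-0.51 to -0.055), whereas those of the other members included 0. Their adjusted p-values by edgeR were 0.205, 0.230 and 0.136, and that fit called 767 genes and 0 members. In set B, Flna stood at 43.5, 61.4 and 63.0 CPM in wild-type animals and at 43.1, 48.7 and 55.3 CPM in heterozygotes. In set A it ran from 43.4 to 53.1 CPM and from 46.7 to 53.2 CPM. Without wild type replicate 5, the lowest wild-type animal of set B, the interaction of Flna was -0.42 and its adjusted p 0.0438. Within set B, the summed markers of 5 of 11 lists also stood apart by genotype (n = 3 each). With 3 animals on each side such a split can readily arise by chance, and the lists come from the same animals. The share of all genes that split this way was not counted, so the count is not a result about cell types. Wild-type animals were the higher for excitatory neurons (7598 to 8004 against 6550 to 7026 CPM), microglia (399 to 454 against 355 to 389 CPM), meninges and fibroblasts (87.3 to 110 against 72.5 to 85.2 CPM) and choroid plexus and ependyma (15.1 to 16.1 against 13.5 to 14.6 CPM). They were the lower for oligodendrocyte precursors (342 to 370 against 373 to 389 CPM). The part of these markers in the values of Flna was not tested. Filip1l at -0.58 (-1.29 to 0.14) and Filip1 at 0.24 (-0.31 to 0.79) were the least precise.

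**Figure D4:**
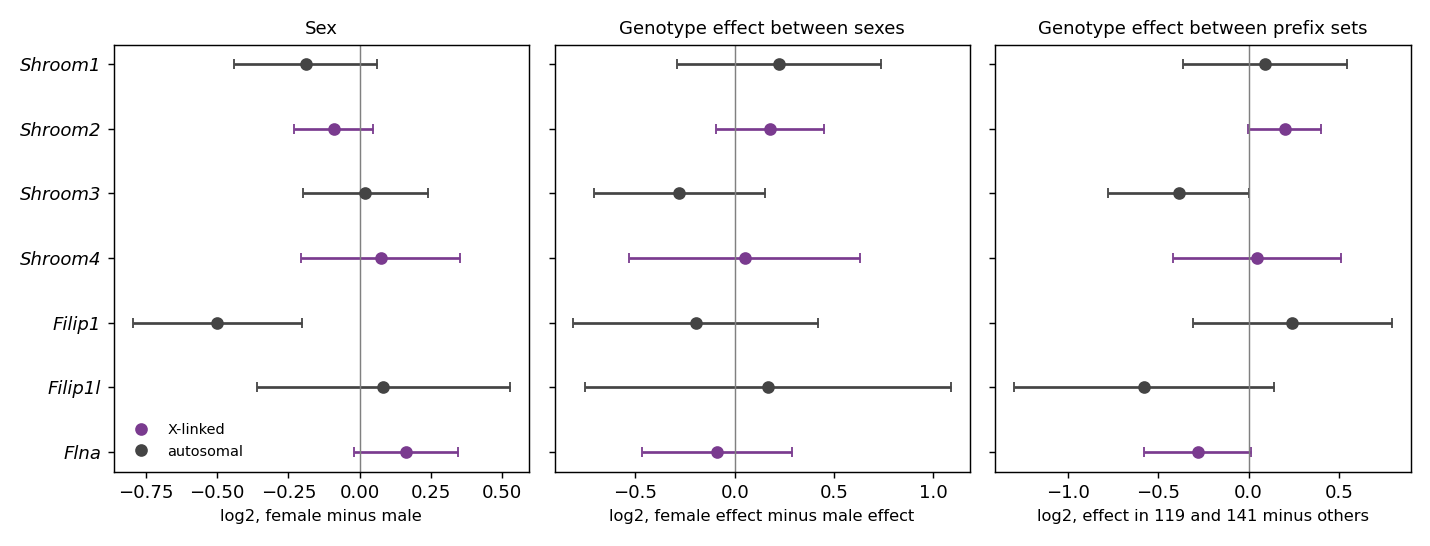
Fitted log2 differences of each member with 95% intervals, for females minus males (left), for the genotype effect in females minus that in males (middle) and for the genotype effect in prefixes 119 and 141 minus that in the other prefixes (right), with X-linked members in purple. In these fits, which hold no prefix block, Filip1 in the left panel is the only value whose interval leaves out 0. Its adjusted p was 0.576 by edgeR, and sex cannot be told apart from prefix. With the block, the intervals of the comparison on the right also left out 0 for Shroom2, Shroom3 and Flna.

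For each member, the genes most like it over the 14 animals were sought by Pearson's r of log2 CPM, taken as deviations from the mean of each prefix set, among genes with a mean of at least 5 CPM. The highest of some 11098 values is large by selection alone, so each r describes these animals only. Filip1 was most like Ndst4, a heparan sulfate sulfotransferase (r = 0.91), followed by Fam189a2 (0.88) and Pnck (0.88). Shroom3 was most like Vac14, a scaffold of the PIKfyve lipid kinase (0.88), followed by Zfp568 (0.86) and Pigz (0.85). These values include the genotype difference by which Shroom3 and Filip1 were chosen: with prefix and genotype means removed, r was 0.48 for Shroom3 with Pigz, 0.68 for Filip1 with Fam189a2, and 0.81 to 0.90 for their other 4 genes. Flna was most like Slc25a37, the mitochondrial iron carrier mitoferrin 1 (0.91), then Vasp, which promotes the growth of actin filaments (0.89), and Pgpep1 (0.89). Shroom1 was most like Rasgef1c (0.89), 2510002D24Rik (0.81) and Sqle (0.81), and Shroom2 was most like B3galtl (0.88), Omg (0.83) and Sybu (0.83). Shroom4 was most like Agtpbp1 (0.87), Mib1 (0.81) and Arhgef6 (0.80), and Filip1l was most like Ogdhl (0.88), 4632415L05Rik (0.86) and Deptor (0.84). No member was among the 3 genes most like another member. With some 11098 genes searched this says little, and Filip1l, at a mean of 3.38 CPM, was not among those searched. Between members, the values ran from -0.61 for Shroom3 with Filip1, both chosen by genotype and in opposite directions, to 0.39 for Shroom4 with Filip1l, and Filip1 with Flna had -0.055.

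The known partners of these proteins showed no gene called by genotype. Of 28 genes of Shroom partners and apical constriction, all tested, 10 had a positive and 18 a negative log2 difference, heterozygous minus wild type, with a median of -0.019 beside 0.0024 over all tested genes. In this list edgeR's quasi-likelihood test called 0, DESeq2 called 0, and 0 had an unadjusted p under 0.05, beside 4.00% of all tested genes. The largest values were those of Ppp1r12a (0.12, SE 0.0720) and Ppp1r12b (-0.14, SE 0.0803), regulatory subunits of myosin phosphatase, Myh10 (0.097, SE 0.0931), a non-muscle myosin heavy chain, and Myl9 (-0.24, SE 0.143), a myosin light chain.

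Of 23 genes of filamins and filamin partners, 20 were tested, of which 10 had a positive and 10 a negative value, with a median of -0.0058. Here edgeR called 0, DESeq2 called 0, and 2 of the 20 had an unadjusted p under 0.05, beside 4.00% of all tested genes. The largest values were those of Flnc (-0.41, SE 0.180), the filamin of muscle, Arhgap24 (-0.36, SE 0.119), a filamin A-binding inactivator of Rac, Kcnd2 (0.17, SE 0.0896), a potassium channel, and Pak1 (0.14, SE 0.0774), a kinase that binds filamin A. Flnc stood at 3.91 ± 0.669 CPM in wild-type and 2.96 ± 0.885 CPM in heterozygous animals, and Arhgap24 at 6.64 ± 0.793 and 5.17 ± 0.827 CPM (SD, n = 7 each). Both differences were larger than the SD of either genotype, yet each had an adjusted p of 0.978 by edgeR over all genes.

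Of 36 actin nucleators, cross-linkers and linkers, all tested, 19 had a positive and 17 a negative value, with a median of 0.0019. In this list edgeR called 0, DESeq2 called 0, and 0 had an unadjusted p under 0.05, beside 4.00% of all tested genes. The largest values were those of Diaph3 (0.21, SE 0.213), a formin listed under its older symbol Diap3, Actg1 (0.15, SE 0.118), a cytoplasmic actin whose reads may be split with near-identical copies, Ezr (-0.21, SE 0.193), which links actin to the membrane, and Palld (-0.19, SE 0.211), an actin cross-linker. With the title prefix as a block, 0 genes of any of the 3 lists were called. In that fit 3 of 28, 4 of 20 and 5 of 36 genes had an unadjusted p under 0.05, beside 12.9% of all tested genes. Between the title prefixes, in contrast, edgeR called 8 of the 28 Shroom partners (28.6%), 7 of the 20 filamin partners (35%) and 19 of the 36 actin genes (52.8%), beside 33.2% of all tested genes. Ezr and Palld were among the last group, as were Actb, a cytoplasmic actin, and Vcl, the focal adhesion protein vinculin.

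**Figure D5:**
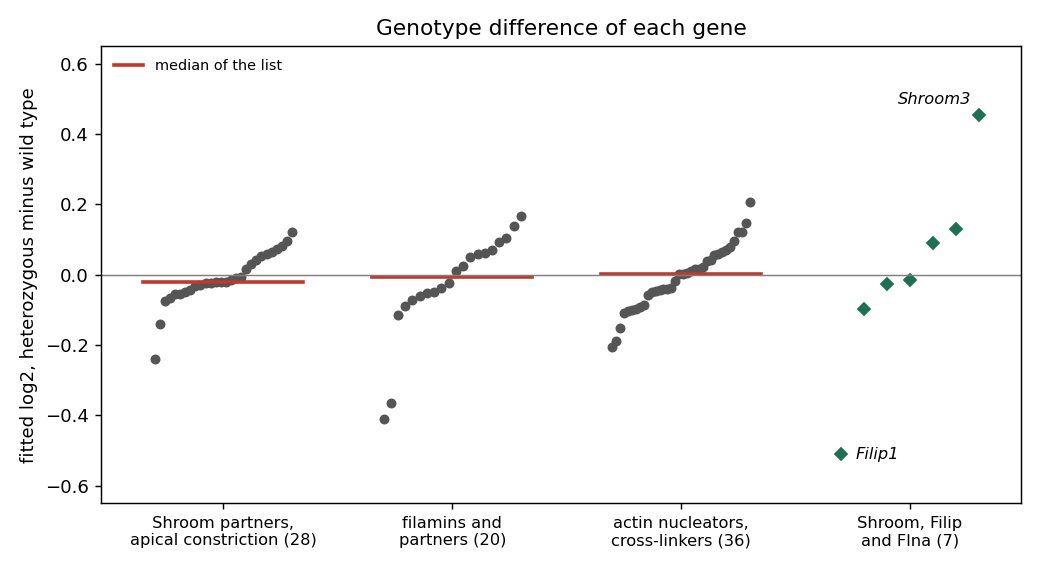
Fitted log2 difference, heterozygous minus wild type, of every tested gene of 3 lists of partners (28, 20 and 36 genes) and of the 7 members, ordered within each list, with the median of each list in red. The list medians are -0.019, -0.0058 and 0.0019, and Shroom3 at 0.45 and Filip1 at -0.51, which were chosen by this contrast, lie beyond every partner.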

How the data were processed

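The authors deposited whole-number counts of reads per gene symbol for the 14 animals, without normalization, and their own genotype comparison as a log2 fold change, a test statistic (a score), and raw and adjusted p-values. Trim Galore, Bowtie, STAR, bedtools and the mm9 build are named, per the submitters' processing notes, with neither version nor role. For this report edgeR 4.0.16 in R 4.3.3 was used: filterByExpr by genotype kept 13815 genes, library sizes were scaled by TMM, dispersion was estimated robustly, and p-values of the quasi-likelihood F test were adjusted by Benjamini-Hochberg over all of them at 0.05. Genotype was fitted with sex as a term, sex with genotype, and prefixes with genotype. Standard errors were derived from log2 differences and their F statistics. Log2 CPM used a prior count of 2. The steps were run on simulated counts of independent animals, without prefix effects and with larger differences than those of the members. That checks the code and not the p-values or intervals of these data. DESeq2 1.42.0, RLE factors, no filter, a prefix block, a set term and leaving out each animal were the alternatives.

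Same-prefix pairs of opposite genotype deviated together (r of 0.200 to 0.517 across genes in 9 pairs), the basis for the prefix block, although animals of 1 prefix also share sex and set. No libraries agreed within counting noise, so all 14 count. Exon lengths, spans and overlaps came from GENCODE M21, with 28376 symbols matched directly and 2462 by an older name. That build differs from the counts', so no coordinates were joined to them, and the printed sequences are from RefSeq. The members and gene lists were chosen with earlier results of these data known. Besides the members, the 3 genes most like each are named, and from each partner list the genes past 0.05 by genotype or, with none, the 2 largest values in each direction. Actb and Vcl were named after their values were seen.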

Additional observations from a re-analysis of the deposited data

How the results depend on the processing

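Of 504 values of the members in the comparisons other than genotype under the alternatives, 478 kept their direction and side of 0.05 and 17 changed sign. These 17 arose from leaving out an animal: the sex difference ranged from -0.021 to 0.093 for Shroom3 and from -0.061 to 0.22 for Filip1l, the sex interaction from -0.084 to 0.19 for Shroom4 and from -0.12 to 0.50 for Filip1l, and the set interaction from -0.12 to 0.17 for Shroom4 and from -0.094 to 0.27 for Shroom1. Of 133 genotype values, 8 changed sign, again on leaving out an animal: Shroom2 reached 0.018, Flna 0.019 and Filip1l -0.034, while 0 of 38 for Shroom3 and Filip1 did. Shroom3 and Filip1 were chosen by their genotype values in these same animals, so their steady sign supports nothing. With the title prefix as replicate block, 56 genes and 2 members were called by genotype, but leaving out an animal moved the count from 10 (without wild type replicate 5) to 120 (without wild type replicate 1), an alternative added after seeing the data. There Shroom3 ranged from 0.37 to 0.51 with an adjusted p of 0.0327 to 0.107, and Filip1 from -0.58 to -0.44 with 0.0284 to 0.138 (edgeR), and each passed 0.05 in 4 of 14 fits. Shroom3 did so without wild type replicates 1 or 7 or heterozygous replicates 3 or 6, and Filip1 without wild type or heterozygous replicate 2, wild type replicate 7 or heterozygous replicate 6. Other genotype counts were 11 by DESeq2, 15 with a set term and 1 to 4 on leaving out an animal. Counts by sex were 11 by DESeq2, 9 without the filter, 17 with a set term and 1 to 12 on leaving out an animal. Members differing between prefixes numbered 3 without the filter (Filip1l and Flna added), 0 within sex, and 1 to 2 on leaving out an animal. Over all genes, 4448 were called within sex and 3413 to 4722 on leaving out an animal. Alternatives that kept all animals called 3926 to 5424 genes. With so many genes called, these member counts are not a result about the members as a group. Genes with a set interaction numbered 210 by DESeq2, 381 without the filter, 767 with the block and 0 to 850 on leaving out an animal (850 without wild type replicate 5), with 0 to 1 members. The causes were not tested. Low counts limit Filip1l most, at 14 to 59 reads per animal.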
